A study of Mus musculus with 4 samples.

Results

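Transcripts of 8 genes of the primitive streak and early mesoderm were examined in mouse E14 embryonic stem cells after knockdown of Lx8-SINE B2, whose name holds that of the B2 family of short interspersed repeats, and in control cells. The genes were Wnt3, T, Tbx6, Mesp1, Evx1, Mixl1, Gsc and Cdx1. They were taken by symbol from the deposited table of raw read counts, where each was found as 1 row, and they make up 8 of its 35976 gene rows.

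The table held 4 mRNA libraries. The 2 control libraries came from E14 cells labelled wild type, and the 2 knockdown libraries from E14 cells labelled knocked down. All carried the strain label 12910la and grew on gelatin, without feeder cells, in serum with LIF, the cytokine that holds mouse embryonic stem cells undifferentiated. Per the labels, cells received 1000 ng of the plasmid pSuper puro, into which the hairpin against Lx8-SINE B2 was cloned and which makes cells resistant to puromycin. They were selected from 24 h after transfection with puromycin at 1 µg/ml for 3 days. The same description was attached to every sample, so the vector in the control cells is not known from it. The hairpin sequence is not given in the labels, and Lx8-SINE B2 itself was not analysed here. The titles of the knockdown libraries alone carry the word batch, so any batch effect and the effect of the knockdown cannot be told apart. Whether replicates were separate cultures is not stated, and p-values therefore rest on a spread between libraries that may be no more than technical.

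The primitive streak is the furrow of the gastrulating embryo through which epiblast cells leave to form mesoderm and definitive endoderm. WNT3 and NODAL signals set it up, and nascent streak cells turn on the T-box gene T (Brachyury) and the homeobox genes Mixl1, Evx1 and Gsc. Mesp1 and Tbx6 follow in early mesoderm, and Cdx1 patterns its posterior part. Undifferentiated embryonic stem cells correspond to the earlier epiblast and transcribe these genes weakly or in few cells.

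The libraries held 16383323 to 19867689 counts. Levels are given in CPM, read counts scaled by library size with TMM factors, so 1 read is worth 0.0519 to 0.0608 CPM. All 8 embryonic stem cell markers were detected. They summed to 7188 and 7096 CPM in the controls and to 5208 and 5704 CPM in the knockdown libraries. Most of that difference was Tdgf1, at 1133 and 1552 CPM against 571 and 602 CPM, and Dppa5a, named after its values were seen. Dppa5a had 1437 and 1446 CPM against 664 and 1021 CPM (log2 fold change -0.77, edgeR adjusted p = 0.130). For the other markers of this list the groups overlapped. The 9 endoderm markers summed to 11.5 and 16.6 CPM in the controls and to 32.7 and 23.9 CPM in the knockdown libraries, and none of them was at 0 in all libraries. The 8 trophectoderm markers summed to 56.9 and 63.1 CPM against 56.1 and 91.2 CPM, and the 8 neural markers to 125 and 134 CPM against 149 and 125 CPM. The neural sum was mostly Tubb3 and Nes, which like Neurod1 were named after their values were seen. Tubb3 was lower in both knockdown libraries, at 76.0 and 79.7 CPM against 68.0 and 68.2 CPM, and the groups of Nes overlapped. Of the 6 tested neural markers 4 had a log2 fold change above 0 and 2 below. Neurod1, a neuronal transcription factor gene and 1 of these 8, was thus picked from the results. It rose from 2.96 and 2.59 CPM to 11.2 and 12.3 CPM (log2 fold change 2.08, edgeR adjusted p = 0.0358). The call was lost without control replicate 2 (1.94) or knockdown replicate 2 (2.02). Gata3, a trophectoderm transcription factor gene named after its values were seen, had 0.476 and 0.467 CPM against 3.14 and 2.80 CPM (2.64, edgeR adjusted p = 0.0527). The 8 fibroblast markers summed to 15.5 and 16.7 CPM against 5.76 and 8.21 CPM, with Lum and Postn at 0 in all 4 libraries. Most of that sum was Thy1, a surface glycoprotein gene also named after its values were seen, at 13.3 and 12.9 CPM against 2.88 and 5.53 CPM (-1.64, edgeR adjusted p = 0.0793). Gata3 and Thy1 were each called with DESeq2 (beside 7.56% of all genes) and the likelihood ratio test (8.08%). Both were also called with no filter (6.47%) and with the replicate number as a block (4.05%), and neither with limma-voom. The part of other cell types in the values below was not tested.

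The streak genes were at the lower edge of what these libraries measure. Together the 8 genes gave 6.02 and 13.5 CPM in the controls and 6.44 and 8.39 CPM in the knockdown libraries, and single genes had 1 to 172 reads in a library. A filter on low counts (filterByExpr of edgeR, which asked here for about 0.531 CPM before scaling in at least 2 libraries) kept 6 of the 8 genes. Mesp1 and Gsc did not pass it and are too low to judge. Wnt3 and Mixl1 passed it through the knockdown libraries alone and T through the controls alone, so these 3 could be tested only because 1 group was above the filter's level. Tbx6 and Cdx1 reached that level in all 4 libraries, and Evx1 in 3. In bulk RNA, fewer cells that transcribe a gene and less RNA per cell cannot be told apart.

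**Figure D1:**
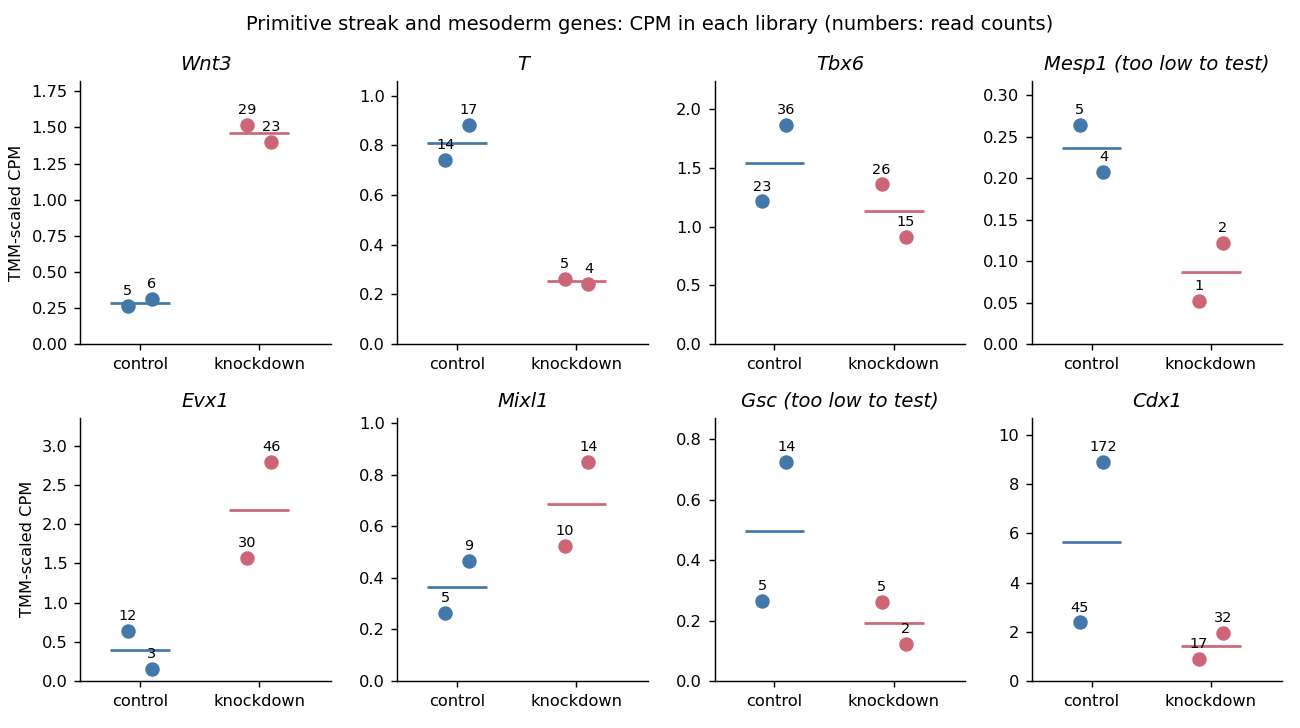
TMM-scaled CPM of the 8 genes in each library, 1 panel per gene with its own linear axis from 0. Points are libraries, the number at a point is its raw read count, and the horizontal bar is the mean of a group's 2 libraries. Wnt3 and Evx1 were higher in both knockdown libraries, T and Cdx1 in both controls, and the controls of Cdx1 stood far apart at 45 and 172 reads.

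Wnt3 and Evx1 had more reads in both knockdown libraries, and T and Cdx1 had more in both controls. The sequences just before the annotated starts of Wnt3, T and Evx1 are shown side by side. Their part in these read counts was not tested. They are from RefSeq (GRCm38.p6, the build mm10), all on the plus strand and written 5′ to 3′. Bases that GENCODE M21 places in an exon of the gene were left off. Wnt3 is shown at chr11:103773925-103774149 (225 bases), T at chr17:8434173-8434422 (250 bases) and Evx1 at chr6:52313248-52313497 (250 bases). Capitals mark CCAAT or its reverse complement.
Wnt3: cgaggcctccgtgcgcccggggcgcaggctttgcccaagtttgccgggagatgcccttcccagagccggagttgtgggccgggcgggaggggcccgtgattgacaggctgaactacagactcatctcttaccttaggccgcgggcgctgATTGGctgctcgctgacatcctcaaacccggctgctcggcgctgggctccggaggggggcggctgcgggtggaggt
T: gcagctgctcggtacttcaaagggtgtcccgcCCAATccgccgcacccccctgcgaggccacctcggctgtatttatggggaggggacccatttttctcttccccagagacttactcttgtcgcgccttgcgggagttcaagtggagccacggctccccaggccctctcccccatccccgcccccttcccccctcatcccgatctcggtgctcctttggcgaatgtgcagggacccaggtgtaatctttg
Evx1: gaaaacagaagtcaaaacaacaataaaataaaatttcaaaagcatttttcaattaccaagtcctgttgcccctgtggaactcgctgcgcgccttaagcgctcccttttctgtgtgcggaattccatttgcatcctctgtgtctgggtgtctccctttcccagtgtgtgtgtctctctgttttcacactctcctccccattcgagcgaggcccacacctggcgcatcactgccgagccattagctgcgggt

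Over the 250 bases before the start, GC content was 68% for Wnt3, 62.8% for T and 49.6% for Evx1, against a median of 52.4% over 32851 such windows of 27025 genes. The ratio of observed to expected CpG was 0.768, 0.594 and 0.676 in the same order, against a median of 0.373. All 3 windows were therefore richer in CpG than the median window. The motif CCAAT was found, on either strand, in the windows of Wnt3 and T, as in 33.8% of all windows. CTTTGAT, a core that TCF and LEF factors bind, was found in the window of Mesp1 and in none of these 3, with 3.21% over all windows. In Mesp1 it lay 31 bases before the RefSeq start, in bases that GENCODE M21 places in an exon of the gene. TCACACCT, a T-box core, was in none of the members' windows searched and in 1.12% of all windows, and AATCCACA, a FOXH1 core, was likewise in none and in 0.718%. TATAAA was in the windows of Tbx6 and Gsc, at a background of 12.4%. The window of Evx1 held none of these 5 motifs. Windows of 6 of the 8 genes were searched, all but Mixl1 and Cdx1.

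Wnt3 encodes the secreted WNT ligand that the embryo needs to form a streak. The gene lies on chromosome 11 from 103774150 to 103817957 (GRCm38, plus strand, 5 exons). It had 5 and 6 reads in the controls against 29 and 23 in the knockdown libraries, or 0.264 and 0.311 CPM against 1.52 and 1.40 CPM. Both knockdown libraries lay well above both controls, and libraries of a group lay close together. The mean was 0.288 ± 0.033 CPM (SD, n = 2) in the controls and 1.46 ± 0.084 CPM (SD, n = 2) in the knockdown libraries. The log2 fold change, knockdown over control, was 2.31 (standard error 0.58), with a 95% interval from 0.97 to 3.66, and edgeR's quasi-likelihood adjusted p was 0.0897. The difference therefore did not pass the threshold of 0.05, although the value stayed between 2.20 and 2.38 when any 1 library was left out. The summed reads alone gave a ratio of 5.08, with an exact 95% interval from 2.62 to 10.8 that covers counting error only.

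T encodes Brachyury, the T-box factor that marks the streak and drives mesoderm formation. It lies on chromosome 17 from 8434423 to 8442496 (plus strand). It had 14 and 17 reads in the controls against 5 and 4 in the knockdown libraries, which is 0.740 and 0.882 CPM against 0.262 and 0.243 CPM. Here the order of the groups was the opposite of that for Wnt3, and again the groups did not overlap. The log2 fold change was -1.66 (standard error 0.64), with a 95% interval from -3.12 to -0.19 (edgeR adjusted p = 0.205). Leaving out any 1 library gave -1.78 to -1.57. The exact 95% Poisson intervals of the counts in control replicate 1 (7.65 to 23.5) and knockdown replicate 1 (1.62 to 11.7) overlapped, which is not a test of a difference. The ratio of summed knockdown to control reads was 0.312, with an exact 95% interval from 0.131 to 0.671 that covers counting error only.

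Tbx6, the T-box gene that directs paraxial mesoderm away from a neural fate, lies on chromosome 7 from 126781483 to 126785560 (plus strand). It had 23 and 36 reads in the controls against 26 and 15 in the knockdown libraries, at 1.22 and 1.87 CPM against 1.36 and 0.912 CPM. The groups overlapped, and the log2 fold change was -0.43 with a 95% interval from -1.66 to 0.80 (edgeR adjusted p = 0.704). The interval reaches past a 2-fold difference downwards, so a moderate difference was not detectable at this depth. Mesp1, a basic helix-loop-helix factor of early cardiac mesoderm, lies on chromosome 7 from 79792241 to 79793788 (minus strand). Its 5 and 4 control reads and 1 and 2 knockdown reads, 12 in all, allow no judgement. The ratio of knockdown to control reads was 0.358 with an exact 95% interval from 0.062 to 1.44, counting error only.

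Evx1, an even-skipped type homeobox gene of the posterior streak, lies on chromosome 6 from 52313498 to 52318378 (plus strand). It had 12 and 3 reads in the controls against 30 and 46 in the knockdown libraries, or 0.634 and 0.156 CPM against 1.57 and 2.80 CPM. Both knockdown libraries were above both controls, but each group was spread widely, with means of 0.395 ± 0.338 CPM and 2.18 ± 0.868 CPM (SD, n = 2 each). The log2 fold change was 2.45 (standard error 0.72), with a 95% interval from 0.78 to 4.11 (edgeR adjusted p = 0.121). It was 3.74 without control replicate 1 and 1.72 without control replicate 2. The antisense gene Evx1os shares 73 exonic bases with Evx1, or 2.54% of its exonic length, and since the strand setting of the counting is not given, reads there cannot be assigned to either. Evx1os itself had 0 and 3 reads in the controls against 13 and 11 in the knockdown libraries, which is 3.00 on the log2 scale (edgeR adjusted p = 0.151), so it was ordered as Evx1 was and was not called either.

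Mixl1, a paired-type homeobox gene of the streak, lies on chromosome 1 from 180693043 to 180697034 (minus strand). It had 5 and 9 reads in the controls against 10 and 14 in the knockdown libraries, at 0.264 and 0.467 CPM against 0.523 and 0.851 CPM. The knockdown libraries were higher by as little as 1 read, and the log2 fold change of 0.89 had a 95% interval from -0.64 to 2.42 (edgeR adjusted p = 0.505). Gsc (goosecoid), a homeobox gene of the anterior streak, lies on chromosome 12 from 104471209 to 104473330 (minus strand). Its 5 and 14 control reads and 5 and 2 knockdown reads were too few to test. In Gsc, control replicate 1 and knockdown replicate 1 had the same number of reads, so the apparent order of its groups rests on control replicate 2.

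Cdx1, a caudal type homeobox gene and a direct WNT target in the embryo, lies on chromosome 18 from 61018862 to 61036199 (minus strand). It was the most abundant of the 8 genes in the controls, with 45 and 172 reads in the controls against 17 and 32 in the knockdown libraries, or 2.38 and 8.92 CPM against 0.890 and 1.95 CPM. The groups did not overlap, but the controls differed from each other by more than control replicate 1 differed from either knockdown library. The exact 95% Poisson intervals of the controls, 32.8 to 60.2 and 147 to 200 reads, were far apart. The log2 fold change was -1.9999 (standard error 0.70), with a 95% interval from -3.61 to -0.39 (edgeR adjusted p = 0.171). Without control replicate 2 it shrank to -0.81 (edgeR adjusted p = 0.504), and without control replicate 1 it was -2.66 and passed (edgeR adjusted p = 0.0496, in a fit that called 3.41% of its genes). Slc6a7, the transporter gene that lies 4639 bases from Cdx1 on the same strand, had 225 and 313 reads in the controls against 76 and 99 in the knockdown libraries, a log2 fold change of -1.49 that was not called (edgeR adjusted p = 0.0796).

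**Figure D2:**
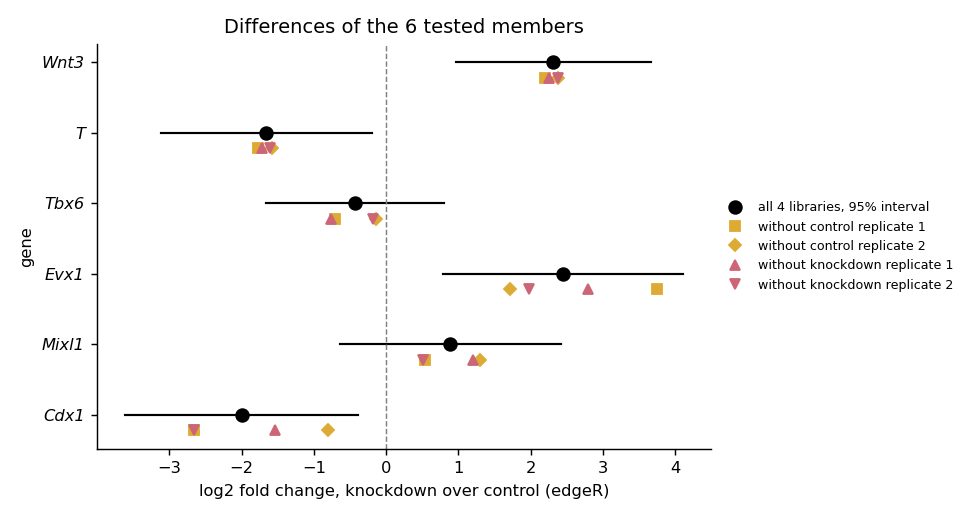
Log2 fold change, knockdown over control, of the 6 tested genes. Black points and bars are edgeR estimates with 95% intervals from all 4 libraries, and coloured symbols are the estimates with 1 library left out. Wnt3 and T hardly moved, while Evx1 ranged from 1.72 to 3.74 and Cdx1 from -2.66 to -0.81.

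None of the members was called in the main comparison. With edgeR's quasi-likelihood test, 0 of 6 passed a Benjamini-Hochberg adjusted p of 0.05, where 1.43% of the 16209 tested genes did. At an unadjusted p below 0.05 there were 4 (Wnt3, Evx1, Cdx1 and T). That was reached by 19.6% of all tested genes and by 17.3% of those with a mean CPM in the range of the tested members. Limma-voom also called 0, with 1.49% of all genes. DESeq2 called 0 and gave an adjusted p for only 3 of them (Tbx6, Evx1 and Cdx1), with 7.56% of all genes called. The likelihood ratio test of edgeR called Wnt3 and Evx1, with 8.08% of all genes called. With no filter on low counts, where all 8 members entered, Wnt3, Evx1 and Cdx1 were called beside 6.47% of all genes. In 5 of the 6 tested members the groups did not overlap, 3 with the knockdown libraries higher and 2 with the controls higher. This was so in 51.9% of all tested genes and in 50.6% of those in the members' range. Exact two-sided permutation of 2 libraries against 2 cannot give a p below 0.333. Wnt3, Mixl1 and T passed the filter through their higher group alone, so neither count can be read as a result about the members.

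Few genes at the level of the members were called with the quasi-likelihood test. Among the 4097 tested genes whose mean lay between 0.526 and 3.53 CPM, the range of the tested members, 14 were called, or 0.342%. The smallest log2 fold change of those 14 was 2.65 in size, more than that of any member. The median standard error was 0.57 in this range, against 0.30 over all tested genes and 0.19 for genes at 100 CPM or more. The mean CPM of Cdx1 was above that of 27.4% of tested genes, that of Tbx6 above 14.9%, that of Evx1 above 14.4%, that of Wnt3 above 8.95%, that of T above 2.28% and that of Mixl1 above 2.16%.

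**Figure D3:**
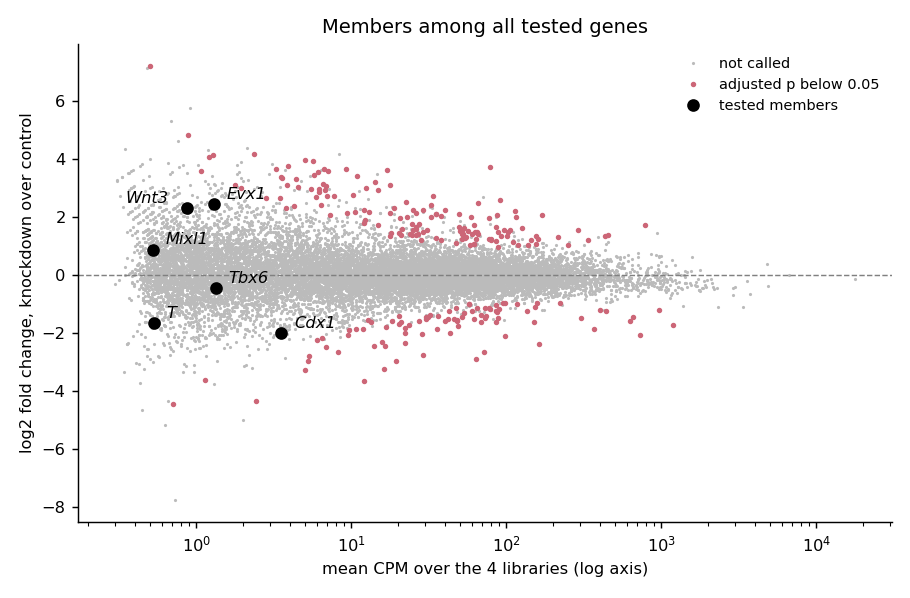
Mean CPM over the 4 libraries (log axis) against log2 fold change, knockdown over control, for all 16209 tested genes. Grey points are genes not called, red points are the 232 called genes and black points are the 6 tested members. The members lie among the weakly expressed genes at the left, inside the grey cloud.

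Per kilobase of exon the order of the genes differed between the groups. In the controls Cdx1 was highest at 3.23 ± 2.64 CPM per kb (SD, n = 2), followed by Tbx6 at 0.854 ± 0.256, Gsc at 0.391 ± 0.258, T at 0.350 ± 0.043, Mesp1 at 0.185 ± 0.031, Mixl1 at 0.159 ± 0.062, Evx1 at 0.137 ± 0.118 and Wnt3 at 0.094 ± 0.011 CPM per kb. Of these neighbours, Gsc and T could not be separated by their 2 libraries, nor could Mesp1 and Mixl1, Mixl1 and Evx1, or Evx1 and Wnt3. In the knockdown libraries the order was Cdx1 at 0.810 ± 0.427, Evx1 at 0.759 ± 0.302, Tbx6 at 0.630 ± 0.176, Wnt3 at 0.474 ± 0.027, Mixl1 at 0.300 ± 0.101, Gsc at 0.151 ± 0.078, T at 0.109 ± 0.006 and Mesp1 at 0.068 ± 0.038 CPM per kb. There the libraries of Cdx1 and Evx1, of Evx1 and Tbx6, and of Gsc and T overlapped. Wnt3 was thus last of 8 in the controls and in place 4 in the knockdown libraries, and T went from place 4 to place 7, as a description of these libraries.

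Other genes of the streak were also weakly transcribed. Of 18 such genes that are not members, 9 passed the filter, 1 rose and 0 fell, beside 0.876% of all tested genes that rose and 0.555% that fell. Fst, which encodes follistatin, an inhibitor of activins and BMPs, rose 5.26-fold, from 1.43 and 1.30 CPM to 8.90 and 5.47 CPM (log2 fold change 2.40, standard error 0.44, edgeR adjusted p = 0.0468). Its call was at the threshold and was lost without control replicate 1 (2.46), control replicate 2 (2.28) or knockdown replicate 1 (2.00), with limma-voom and with all 3 other scalings. The median log2 fold change of the 9 was 0.87, against 0.0057 over all tested genes. Genes that pass through the group where they are higher weigh on such a median. Named after their values were seen, Wnt8a, another WNT ligand, had 1.37 and 0.778 CPM in the controls and 5.34 and 4.86 CPM in the knockdown libraries (log2 fold change 2.24, edgeR adjusted p = 0.0628). Snai1, a repressor of epithelial genes, had 1.53 and 2.91 CPM against 6.75 and 9.85 CPM (1.90, edgeR adjusted p = 0.0803). Both passed with DESeq2, the likelihood ratio test, no filter and the replicate block, and Wnt8a also passed without control replicate 1, at 2.70. The caudal gene Cdx4, also named after its values were seen, had 3 and 1 reads against 10 and 10 (2.36, edgeR adjusted p = 0.167). Its order was opposite to that of its relative Cdx1. Eomes, a T-box gene of the early streak and the most abundant of the 18, was named in the same way. It was at 11.5 and 10.1 CPM against 10.4 and 15.1 CPM, with a log2 fold change of 0.24 that was -0.047 without knockdown replicate 2.

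Of 16 genes of later mesoderm, 11 were tested and 0 passed edgeR's quasi-likelihood test, and 6 had an unadjusted p below 0.05, which 19.6% of all tested genes had. Kdr was called with DESeq2 (beside 7.56% of all genes), limma-voom (1.49%), the likelihood ratio test (8.08%), no filter (6.47%) and the replicate number as a block (4.05%). The likelihood ratio test also called Foxc1, and the fit with no filter Gata4. Their median log2 fold change was 1.00, with 7 above 0 and 4 below. The most abundant were Tcf15, at 83.1 and 62.1 CPM in the controls and 82.9 and 40.6 CPM in the knockdown libraries, and Gata4, which also marks endoderm, at 5.02 and 4.72 CPM against 15.4 and 6.51 CPM. Neither was called, with log2 fold changes of -0.23 and 1.17, and Gata4 was at 0.41 without knockdown replicate 1. The summed endoderm markers, of which Gata4 is 1, were also higher in both knockdown libraries, as given above, and their part in the values of this list was not tested. Gata4 was itself the largest part of that sum in both knockdown libraries. Of the 6 tested endoderm markers 5 had a log2 fold change above 0, and Cxcr4 was below, at -0.88. Kdr, the VEGF receptor gene of blood and vessel progenitors, named after its values were seen, had 2.64 and 2.65 CPM in the controls and 10.2 and 9.24 CPM in the knockdown libraries (log2 fold change 1.88, edgeR adjusted p = 0.0503). It missed the threshold although its libraries agreed closely within each group.

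The 16 genes that act on the streak programme summed to 3083 and 3311 CPM in the controls and to 2556 and 2602 CPM in the knockdown libraries, though the range of Lef1 overlapped that of Cdx1. The lower sum in the knockdown libraries came from Tdgf1, and without that gene the sum was not lower there. All 16 were tested, 0 rose and 1 fell, with a median log2 fold change of -0.0059. Tdgf1, which encodes the NODAL coreceptor CRIPTO, fell 2.29-fold, from 1133 and 1552 CPM to 571 and 602 CPM (edgeR adjusted p = 0.0438). Its call was lost without knockdown replicate 1 (-1.16) or knockdown replicate 2 (-1.23) and with scaling by library totals. Of ligand genes named after their values were seen, Nodal had 94.5 and 81.7 CPM in the controls and 141 and 211 CPM in the knockdown libraries (log2 fold change 1.00, edgeR adjusted p = 0.0702), and Bmp4, a signal to the posterior streak, had 53.4 and 26.5 CPM against 19.9 and 17.2 CPM (-1.11, edgeR adjusted p = 0.126). Lef1, a transcription factor that mediates WNT signals, and Tcf7l1 were also named after their values were seen. Lef1 had 12.6 and 3.89 CPM in the controls and 2.62 and 3.77 CPM in the knockdown libraries (-1.37, edgeR adjusted p = 0.237). Tcf7l1, a repressor of WNT targets in embryonic stem cells, had 29.7 and 18.6 CPM against 43.0 and 35.0 CPM (0.69, edgeR adjusted p = 0.218). None of these 4 was called in the main comparison, edgeR's quasi-likelihood test after the filter on low counts. For each of them the groups did not overlap, as for 51.9% of all tested genes. Nodal and Bmp4 were called with DESeq2, the likelihood ratio test and no filter, and Lef1 with no filter. Nodal was also called with the replicate block (edgeR adjusted p = 0.0347) and without knockdown replicate 1 (1.25, where 2.26% of all genes were called), and Bmp4 without control replicate 2 (-1.58, where 2.06% were). Without control replicate 1 Bmp4 was at -0.51 and Lef1 at -0.29, so both values rest largely on that library. Tcf7l1 was at 0.34 without control replicate 2 and at 1.07 without control replicate 1.

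Of 10 genes of the primed epiblast, the state before the streak, 9 were tested and 0 were called with edgeR's quasi-likelihood test (1.43% of all tested genes), with a median log2 fold change of -0.14. At an unadjusted p below 0.05 there were 2, against 19.6% of all tested genes. DESeq2 (7.56% of all genes called) and the likelihood ratio test (8.08%) each called 1 of them, Dnmt3a, no filter (6.47%) called Dnmt3a and Zic2, and limma-voom called 0. The most abundant were Dnmt3a, a DNA methyltransferase gene, at 343 and 261 CPM in the controls and 203 and 171 CPM in the knockdown libraries (log2 fold change -0.69, edgeR adjusted p = 0.118), and Utf1, a chromatin gene, at 332 and 170 CPM against 184 and 180 CPM (-0.47, edgeR adjusted p = 0.420). Without control replicate 2 Dnmt3a was at -0.93. Dnmt3b, named after its values were seen, had 309 and 96.7 CPM in the controls and 171 and 165 CPM in the knockdown libraries. Its log2 fold change was -0.27 (edgeR adjusted p = 0.781). Both its knockdown libraries lay below control replicate 1 and above control replicate 2, so its direction rests on which control is kept. In Utf1 only control replicate 1 stood apart, and the value was 0.093 without it and -0.92 without control replicate 2.

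**Figure D4:**
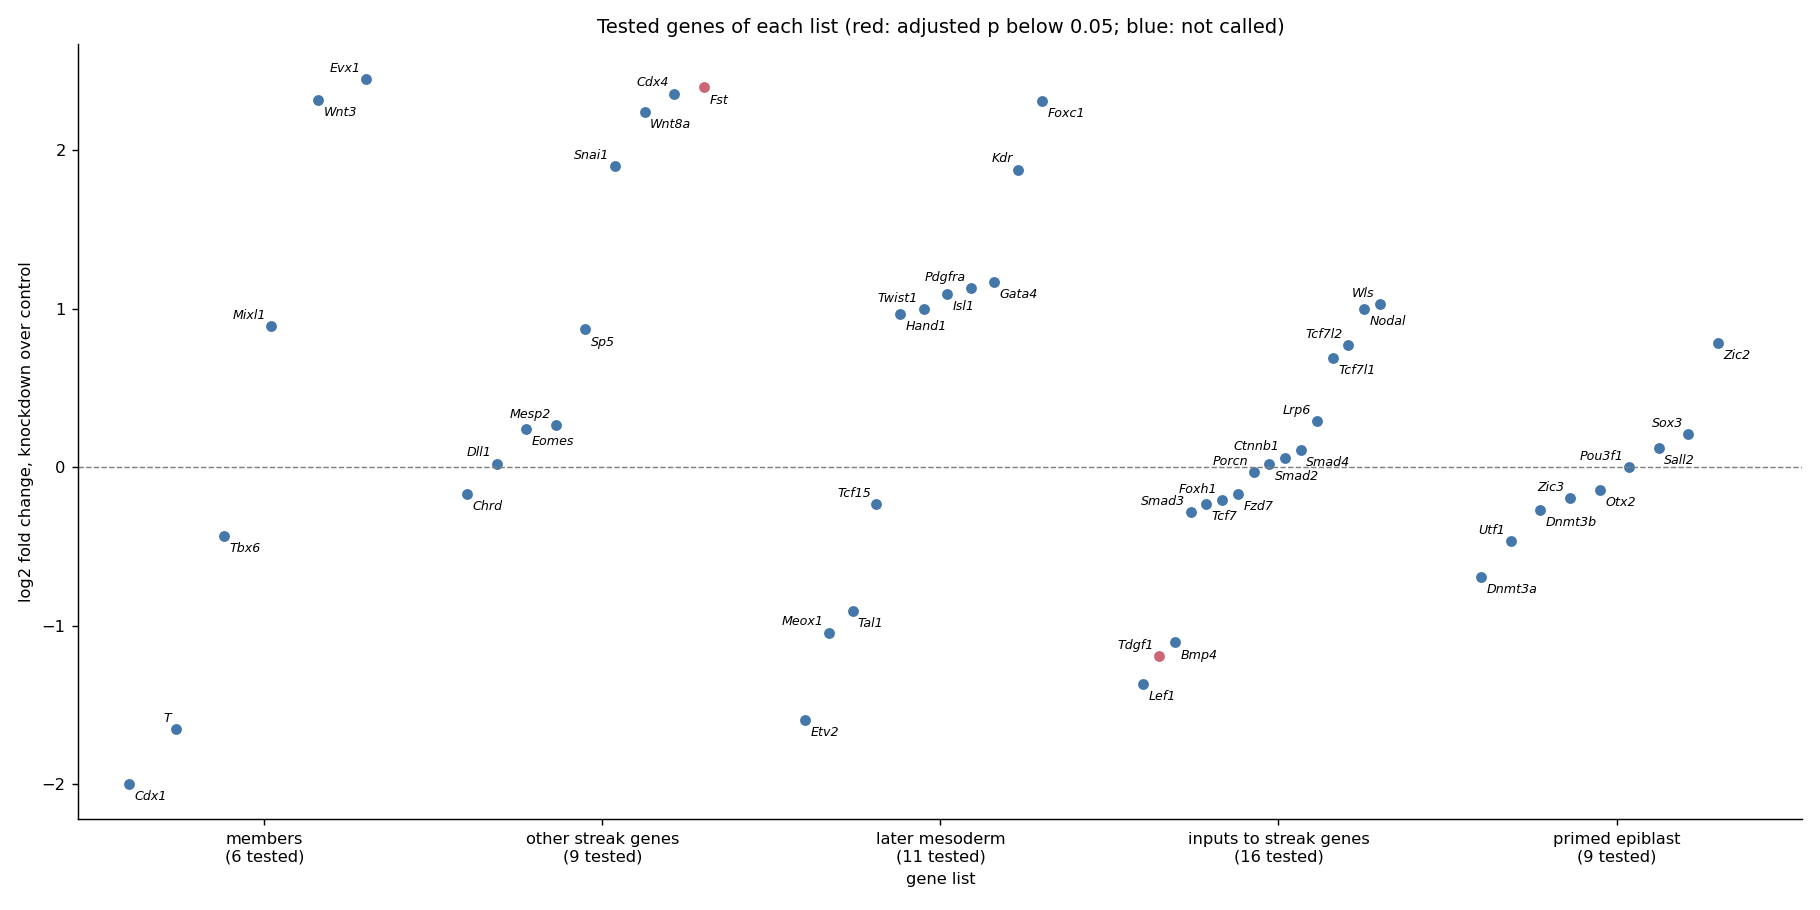
Log2 fold change, knockdown over control, of the tested members and of the tested genes of 4 related lists, 1 point per gene in increasing order within a list. Red points are the 2 called genes, Fst and Tdgf1, and blue points are not called. Members lie on both sides of 0, with Cdx1 lowest and Evx1, at 2.45, highest.

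The genes whose pattern was most like that of the 2 members with the highest mean over all libraries were sought by the distance between centred log2 CPM over the 4 libraries. For Cdx1 they were Gm34293 at a distance of 0.22, Lipg, an endothelial lipase gene, at 0.41 and Col13a1, a collagen gene, at 0.46. All 3 were high in control replicate 2, as Cdx1 was, with 4.62, 2.33 and 15.0 CPM there against 1.37, 0.740 and 6.50 CPM in control replicate 1. In all, 103 genes lay within a distance of 1 of Cdx1. For Tbx6 they were Gm35339, Fan1 and Ankrd26, at 0.029 to 0.037, but 11845 genes lay within 1 of it, so the likeness singles out little. With 4 libraries such a ranking is a description only.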

How the data were processed

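mRNA libraries of 2 control and 2 knockdown samples, grouped by title, were compared. The values deposited by the authors are unnormalized read counts, 1 row per gene. Trimming with cutadapt, alignment with HISAT2 and counting with featureCounts on mm10 are named in the submitters' processing notes. Tool versions, annotation, strand setting and handling of multi-mapping reads: not given in the sources used here.

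Of 36068 rows, 92 spike-in rows, all at 0, were left out. Symbols turned into dates (27 rows, 0.151% to 0.177% of counts) stayed in. Genes were filtered with filterByExpr (minimum count 10), scaled by TMM and tested with edgeR 4.0.16 in R 4.3.3 (quasi-likelihood F-test, group as the only term). The Benjamini-Hochberg adjustment ran over 16209 genes, and called means an adjusted p below 0.05. Intervals of log2 fold changes use the standard error (size of the log2 fold change over the root of F) and the t distribution. Intervals of counts and read ratios are exact at 95%. Exonic lengths came from GENCODE M21. The fit was tested on simulated counts.

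Members and lists were chosen with earlier results of these data known. Named genes were all members, called genes of the other lists (or the 2 most abundant where none was called) and the 3 genes most like each of the 2 most abundant tested members. Others were named after their values were seen, and most are marked so where they appear. Alternatives were 3 scalings, 2 filters, the likelihood ratio test, DESeq2 1.42.0, limma-voom (limma 3.58.1), the replicate number as a block, leaving out each library and thinning to the shallowest library.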

Additional observations from a re-analysis of the deposited data

How the results depend on the processing

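The log2 fold changes of the 6 tested members kept their sign under every alternative that tested them. The count of called members, 0, was 3 with no filter, 2 with the likelihood ratio test and 0 to 1 when 1 library was left out. It stayed 0 with the 3 other scalings, the stricter filter (CPM of at least 1 in 2 libraries), DESeq2 (3 members with an adjusted p), limma-voom and thinning. With 1 library left out, the spread came from the complete group, and the lone library was taken to vary as much. The members without overlap, 5, were 3 with the stricter filter, which tested 4 members. They were 7 with no filter, which tested 8 members, and 6 with thinning. With 1 library left out they were 5 to 7, where fewer libraries must be apart. The share over all genes was not taken under these settings, so these counts cannot be read as a result about the members. Over all genes the 232 calls became 1107 under DESeq2, 1310 under the likelihood ratio test, 1717 with no filter and 153 (without knockdown replicate 2) to 587 (without control replicate 1) with 1 library left out. The 2 calls in the 4 related lists became 8, 9 and 12 in the same order, 1 with RLE or upper quartile factors, 0 with library totals and 1 to 5 with 1 library left out. The cause was not tested.

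Control and knockdown libraries share only replicate numbers. The differences between replicates 1 and 2 correlated at -0.057 between the groups, across genes. With the replicate block, 656 genes, 0 members and 6 genes of the related lists were called.

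Values that changed sign were those of Tcf15 (0.19 without knockdown replicate 2, and -0.84 when replicate 1 of that group was left out), Utf1 (from -0.92 without control replicate 2, where it was called, to 0.093 without control replicate 1) and Eomes (-0.047 without knockdown replicate 2, and 0.48 when replicate 1 of that group was left out). At this depth Mesp1 and Gsc could not be judged, and the 14 genes called at the level of the tested members differed by at least 6.28-fold.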
